A study of Mus musculus with 4 samples.

Results

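Zeb2, the gene deleted in this study, was followed together with Smad7 and Nkd1, which encode feedback inhibitors of neighbouring signalling pathways, in mouse spinal cord at postnatal day 14. The 3 genes were taken by symbol from the table of changed transcripts that the authors deposited, which named 369 genes. Each had 1 transcript cluster under its own symbol in that table, and the array gave values for 35557 clusters. Whether further clusters on the array belong to these genes was not checked. A transcript cluster is the set of probes that this array type reads as 1 transcript unit. No probe annotation was used here, so whether all 35557 are of that kind was not checked. A run of 6613 with the lowest identifiers has no entry in the authors' table. These 6613 count in every share of all clusters given below. The 2 control arrays held RNA of Sip1c/+;Olig1-Cre littermates, which carry 1 floxed copy of Zeb2, and the 2 mutant arrays (Sip1 cKO) held RNA of Sip1c/c;Olig1-Cre mice, with both copies floxed. All 4 samples were of the strain given as c57.129 mixed background, and the Cre recombinase, which both groups carried, was driven from Olig1, a gene of the oligodendrocyte lineage. The arrays were labelled as biological replicates, the RNA came from the whole cord, and the sex of the mice or any pooling was not given in the sources used here.

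Zeb2, also called Sip1, is a zinc finger and homeodomain transcription factor that binds Smad proteins and, through paired CACCT sites, DNA. Smad proteins carry signals of BMP and TGF-beta receptors, and BMP signals hold back the maturation of oligodendrocytes. Smad7 ends the signals of both receptor kinds by blocking the receptors and marking them for degradation. Wnt signals also restrain oligodendrocyte maturation, and Nkd1 dampens them by binding Dishevelled, the protein that relays the signal from Wnt receptors. Both inhibitors are typically induced by the pathway they restrain, and Smad7 has been described as a gene that Zeb2 promotes in the oligodendrocyte lineage.

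Each array gave log2 values made with RMA, a procedure that evens out the arrays, so a shift common to most of the transcripts is lost from them. The medians of the arrays lay between 6.62 and 6.70, and arrays correlated across clusters with r of 0.990 or more within a group and 0.984 or less between groups. The limma test called 305 clusters lower in Sip1 cKO, or 0.858% of those fitted, and 78 higher, or 0.219%, at a Benjamini-Hochberg adjusted p under 0.05. Of the 369 named genes 204 were called lower, or 55.3%. The authors had chosen these named genes on the same arrays by a fold of at least 1.45 and a percentile range of 10 to 100. A difference between groups was thus a condition for a gene to be named at all.

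All 3 genes read lower in Sip1 cKO, and 1 of them, Zeb2, passed the test. Zeb2 was 3.36-fold lower, Smad7 2.38-fold and Nkd1 1.80-fold. For each gene both Sip1 cKO arrays lay below both control arrays, which also held for 25.1% of all clusters and for 97.8% of the named genes, while 24.8% of all clusters had both Sip1 cKO arrays above. Because the authors' table lists genes by their difference, the shared direction of Smad7 and Nkd1 is not independent evidence of a change. In RNA of a whole tissue, fewer cells of a type and less RNA per cell cannot be told apart.

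**Figure D1:**
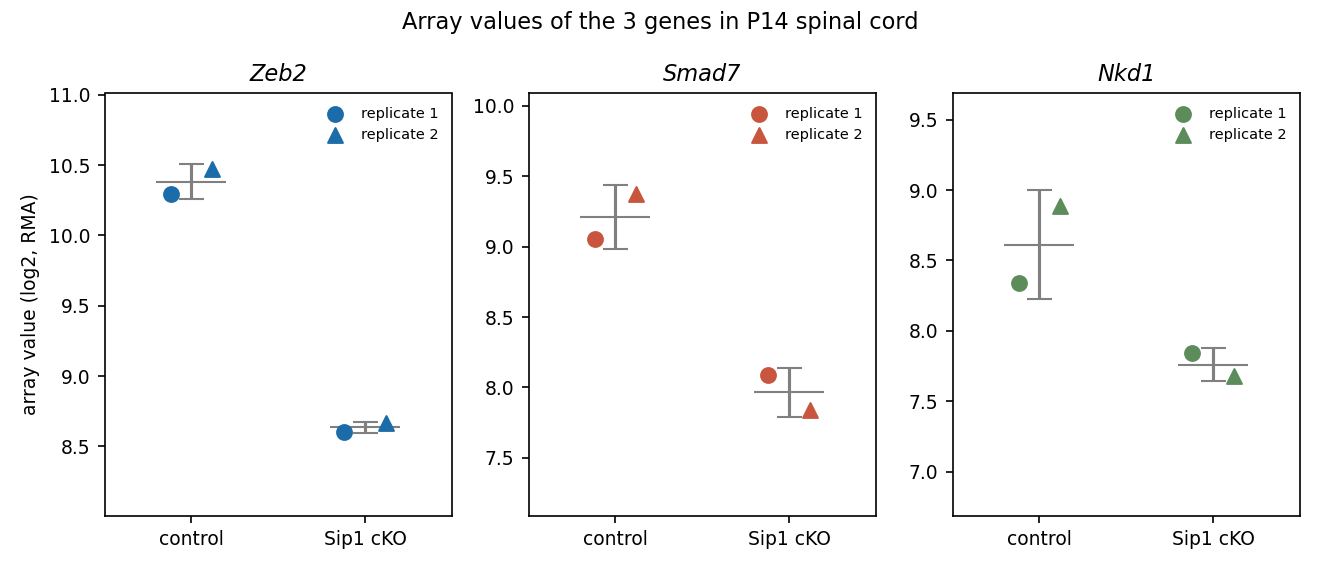
Array values of Zeb2, Smad7 and Nkd1 (log2, RMA) by group, with circles for replicate 1, triangles for replicate 2, and grey lines for the mean and SD of 2 arrays. Each panel spans the same number of log2 units around its own gene, and in each the Sip1 cKO arrays sit below the control arrays, with the narrowest gap for Nkd1 (0.49).

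Zeb2, the targeted gene, was read in transcript cluster 10482448. Its log2 value was 10.29 in control replicate 1 and 10.47 in replicate 2, against 8.61 and 8.66 in Sip1 cKO replicates 1 and 2. The groups were 1.63 log2 units apart at their nearest arrays, while replicates lay 0.18 apart in control and 0.06 in Sip1 cKO, and both Sip1 cKO arrays were thus the low ones, matching their label. The group means were 10.38 ± 0.13 and 8.64 ± 0.04 (SD, n = 2 each), which is a log2 change of -1.75 ± 0.11 (SE) with a 95% confidence interval of -2.03 to -1.46 (limma, adjusted p = 0.0144).

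On a linear scale Zeb2 in Sip1 cKO stood at 29.8% of control, with a 95% interval of 24.4% to 36.3%, and the individual Sip1 cKO arrays stood at 29.2% and 30.4% of the control mean. The reference is a control that carries 1 floxed copy itself, so the value is not a share of the wild-type level. The cord also holds cells outside the lineage in which Olig1-Cre acts, and the position of the probes against the floxed part was not analysed here. Only 155 clusters had a lower log2 change than Zeb2 and 70 a smaller p-value. Among the named genes 113 had a lower log2 change. Leaving out any 1 array kept the log2 change between -1.84 and -1.66, but the call was lost each time. Fits that leave 1 array in a group lose most calls over all clusters, so this loss is not particular to Zeb2.

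Smad7, the inhibitor of BMP and TGF-beta signals, was read in transcript cluster 10456745. Its log2 value was 9.05 in control replicate 1 and 9.37 in replicate 2, against 8.09 and 7.84 in Sip1 cKO replicates 1 and 2. The groups did not overlap and were 0.97 apart at their nearest arrays, about 3 times the 0.32 between the control arrays. The means were 9.21 ± 0.23 and 7.96 ± 0.17 (SD, n = 2 each), which is a log2 change of -1.25 ± 0.16 (SE) with a 95% interval of -1.67 to -0.83. This missed the threshold over all clusters (limma, adjusted p = 0.0585, unadjusted p = 7.46e-04).

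Smad7 in Sip1 cKO thus stood at 42.1% of control on the linear scale, with an interval of 31.5% to 56.3%. Its side of the threshold changed with the clusters fitted and with the model of the spread. The adjusted p was 0.0103 when the clusters with the lowest identifiers, which the authors' table does not list, were left out, 0.0155 with a filter on dim clusters and 0.0301 when the spread was allowed to follow the mean level. It ranged from 0.0566 to 0.138 in the other 6 settings that kept all arrays, and from 0.110 to 0.214 without any 1 array, with log2 changes between -1.41 and -1.09.

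Nkd1, the inhibitor of Wnt signals, was read in transcript cluster 10573779 and varied most between the control arrays. Its log2 value was 8.34 in control replicate 1 and 8.89 in replicate 2, against 7.84 and 7.68 in Sip1 cKO replicates 1 and 2. The gap of 0.55 between the control arrays was wider than the 0.49 between the nearest arrays of the groups, although the groups did not overlap. Only 6.76% of all clusters had a wider gap between the control arrays, against 20.3% for the gap of Smad7 and 43.2% for that of Zeb2.

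The Nkd1 means were 8.61 ± 0.39 and 7.76 ± 0.12 (SD, n = 2 each), which is a log2 change of -0.85 ± 0.21 (SE) with a 95% interval of -1.40 to -0.31. The difference did not pass (limma, adjusted p = 0.184, unadjusted p = 0.0108). An unadjusted p under 0.05 with a lower value was reached by 8.51% of all clusters. On the linear scale Nkd1 in Sip1 cKO stood at 55.4% of control, with an interval of 37.9% to 80.9%. The size turned on which control array was kept: without control replicate 2 the log2 change was -0.58 (adjusted p = 0.206), and without control replicate 1 it was -1.13 (adjusted p = 0.115).

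**Figure D2:**
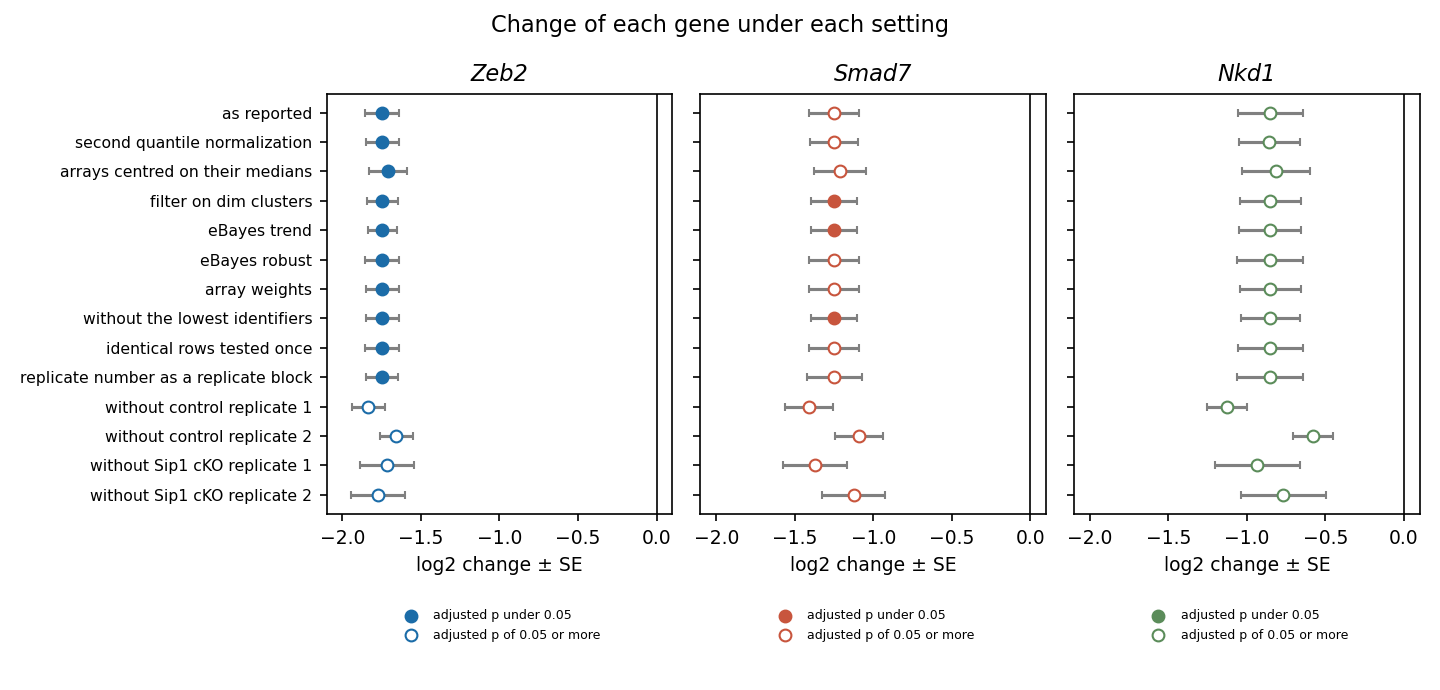
The log2 change (Sip1 cKO minus control, x axis) of Zeb2, Smad7 and Nkd1 with its standard error under each setting of the test (y axis), filled where the adjusted p was under 0.05. Zeb2 is filled in the settings that kept all arrays, Smad7 in 3 of them, and Nkd1 in none.

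The promoter windows of Zeb2, whose low value is that of the deleted gene, and of Nkd1 are shown because Zeb2 binds the sequence CACCT. The window of Smad7 was not analysed here. Windows of 250 bases before to 50 after a gene start were taken from RefSeq (GRCm38.p6) and searched for CACCT on both strands, its reverse complement being AGGTG, and matches are in capitals. For Zeb2, which has 4 such windows, the one at its outermost start is given (chr2:45117393-45117692, minus strand, read along the gene). For Nkd1 the 1 window of the table is given (chr8:88527383-88527682, plus strand).
Zeb2: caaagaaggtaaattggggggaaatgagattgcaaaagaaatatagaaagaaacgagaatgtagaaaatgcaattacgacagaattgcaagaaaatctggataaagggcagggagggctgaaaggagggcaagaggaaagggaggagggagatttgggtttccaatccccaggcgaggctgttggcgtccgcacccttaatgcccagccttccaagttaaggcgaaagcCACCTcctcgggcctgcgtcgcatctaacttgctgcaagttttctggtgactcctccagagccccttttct
Nkd1: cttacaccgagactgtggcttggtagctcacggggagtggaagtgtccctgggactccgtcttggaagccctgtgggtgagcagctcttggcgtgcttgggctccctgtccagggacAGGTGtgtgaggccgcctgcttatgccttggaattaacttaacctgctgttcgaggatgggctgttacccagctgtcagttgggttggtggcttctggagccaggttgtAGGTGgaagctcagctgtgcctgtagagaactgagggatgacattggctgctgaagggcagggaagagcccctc
The Zeb2 window held 1 match, 21 bases before the start, and its other windows held 2, 1 and 0, of which the windows with 2 and 1 overlap. The Nkd1 window held 2 matches, 133 and 24 bases before the start, both as AGGTG in the direction of the gene. Of 32851 windows of the same length 51.9% held at least 1 match and 18.2% at least 2, so such matches are found in many windows. In the Nkd1 window 1 of the 2 matches was part of the longer form CACCTG, read as CAGGTG. That form was in 20.2% of all windows, and windows with 2 matches of which 1 has this form were not counted. The motif CTTTGA, the core recognised by the TCF and LEF factors of the Wnt pathway, with its reverse complement TCAAAG, was in none of the 5 windows of Zeb2 and Nkd1 and in 16.0% of all windows. A match is a run of letters and not a shown binding site.

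The order of the changes was Zeb2, Smad7, Nkd1. The 95% intervals of Zeb2 and Smad7 overlapped, as did those of Smad7 and Nkd1, while that of Nkd1 lay wholly above that of Zeb2 on the log2 scale. The difference between the changes of any pair of genes was not tested. A log2 change lower than that of Nkd1 was found in 677 clusters and lower than that of Smad7 in 308, and 1.38% of all clusters and 70.2% of the named genes were at least 2-fold lower, as were Zeb2 and Smad7. The median log2 change was -0.01 over all clusters and -1.29 over the named genes, so that Smad7 and Nkd1 lay on the upper side of the named median and Zeb2 below it.

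**Figure D3:**
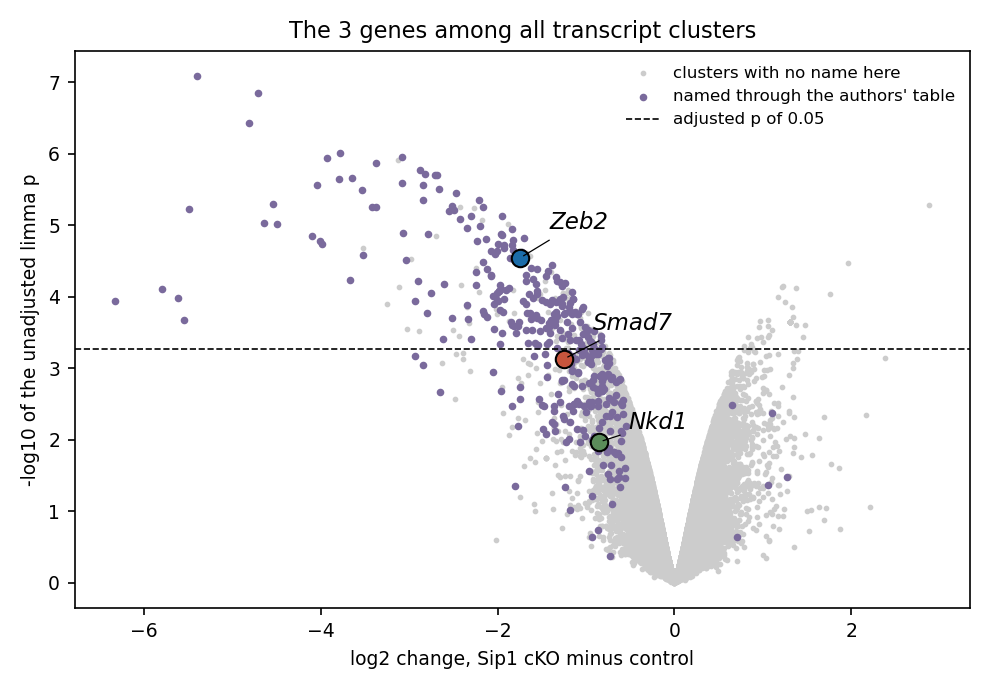
Each point is a transcript cluster, with its log2 change (Sip1 cKO minus control) on the x axis and the -log10 of its unadjusted limma p on the y axis. Purple points were named through the authors' table, and the dashed line marks an adjusted p of 0.05, with Zeb2 above it, Smad7 just under it and Nkd1 further below.

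The authors' deposited table gave the same direction and close sizes, as it was made from the same samples. The authors' deposited table put Zeb2 3.29-fold higher in control, with mean intensities of 1353 in control and 411 in Sip1 cKO. For Smad7 the authors' deposited table gave a fold of 2.30 in the same direction, from intensities of 611 and 264. For Nkd1 it was 1.76 in the authors' deposited table, from intensities of 412 and 230. Ordered by fold among the 420 listed clusters, the authors' deposited table placed Zeb2 at 117, Smad7 at 209 and Nkd1 at 332.

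Control replicate 2 exceeded control replicate 1 for all 3 genes, by 0.18 for Zeb2, 0.32 for Smad7 and 0.55 for Nkd1 on the log2 scale. The same held for 303 of the 369 named genes, or 82.1%, and for 47.0% of all clusters. In Sip1 cKO the genes parted, with replicate 2 minus replicate 1 at 0.06 for Zeb2, -0.25 for Smad7 and -0.17 for Nkd1. The part of the control arrays' gap in the changes was not tested, beyond the values without each array.

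Likeness of pattern was measured as the Euclidean distance between the 4 log2 values of a gene, each gene centred on its own mean, over 4 arrays and against 368 other named genes. A small distance means that a gene moved by a similar amount on each array. Smad7 and Nkd1 were 0.432 apart, Zeb2 and Smad7 0.552, and Zeb2 and Nkd1 0.946. Smad7 was not among the nearest genes of Zeb2, to which 130 named genes lay nearer, nor of Nkd1, to which 124 lay nearer. These distances describe genes that were all named for differing in the same contrast and carry no test.

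The genes nearest to Zeb2 were Plekhg3 at a distance of 0.0729, Zdhhc9, a palmitoyltransferase, at 0.0939, and Klhl2, an actin-binding Kelch protein, at 0.101. The median distance to Zeb2 was 0.715. Plekhg3 read 8.41 and 8.51 in control and 6.68 and 6.79 in Sip1 cKO, and its log2 change of -1.72 passed the test (limma, adjusted p = 0.0131). Nearest to Smad7 were Ephb1, a receptor for ephrins, at 0.0751, Fgd3, an exchange factor for Cdc42, at 0.0843, and an entry listed under an Ensembl identifier alone, at 0.100, against a median of 0.560. Ephb1 had a log2 change of -1.24 and, like Smad7, missed the threshold (limma, adjusted p = 0.0574), while Fgd3, at -1.33, passed narrowly (limma, adjusted p = 0.0493).

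Nearest to Nkd1 were Card19, a protein with a caspase recruitment domain, at 0.101, Olig1, a basic helix-loop-helix factor of the oligodendrocyte lineage, at 0.102, and Mgll, the lipase that degrades monoacylglycerols, at 0.124, against a median of 0.619. Olig1 read 10.74 and 11.34 in control, a gap of 0.61, against 10.16 and 10.07 in Sip1 cKO. Neither Olig1, with a log2 change of -0.92 (limma, adjusted p = 0.179), nor Card19, with -0.91 (limma, adjusted p = 0.173), nor Mgll, with -0.86 (limma, adjusted p = 0.161), passed the test.

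**Figure D4:**
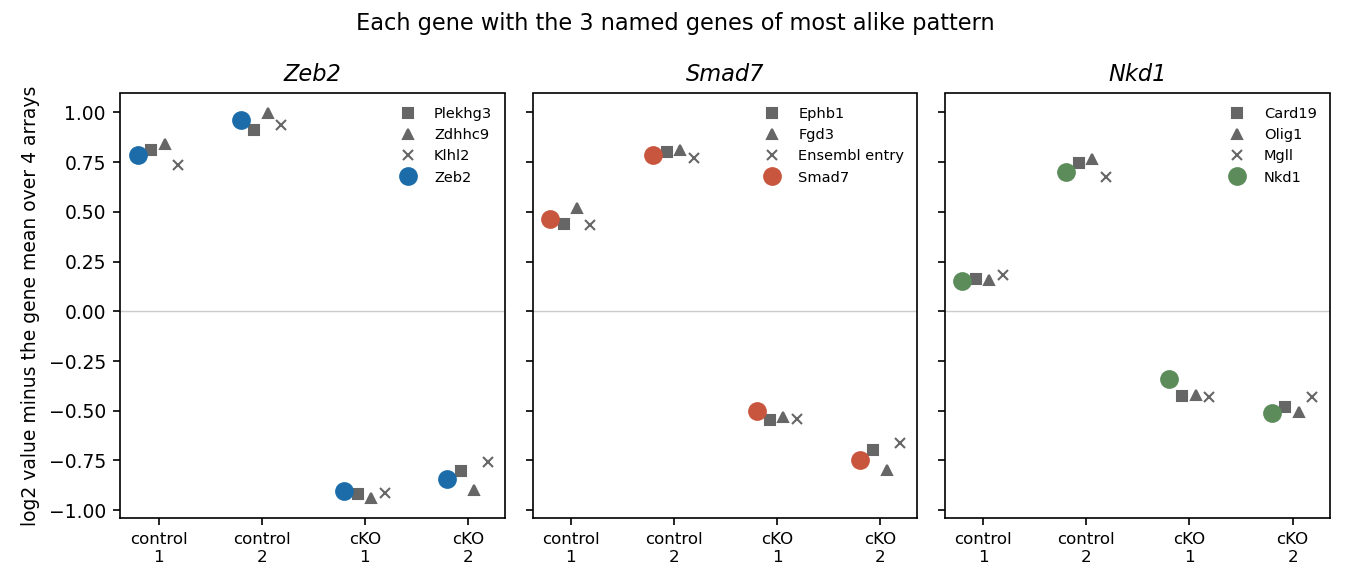
The log2 value of each gene minus its mean over the 4 arrays (y axis) for each array (x axis), with Zeb2, Smad7 and Nkd1 as coloured circles and the 3 nearest named genes of each as grey marks. Control replicate 2 lies above control replicate 1 for every gene shown, by the most around Nkd1.

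Of the pathways that the inhibitors belong to, few genes could be named. The lists for BMP and TGF-beta signalling held 53 genes, covering ligands, receptors, Smads, inhibitors and target genes, and Smad7 was the only 1 named. The lists for Wnt signalling held 48 genes and named 2, Nkd1 and Wnt3. Clusters of the other genes on these lists carried no name, so they were not analysed here and their direction is not known from these values.

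Wnt3, a secreted ligand of the Wnt pathway, fell in Sip1 cKO. Its log2 value was 7.14 and 7.29 in control, against 6.10 and 6.18 in Sip1 cKO. The groups were 0.96 apart at their nearest arrays, wider than the 0.15 between the control arrays. The means were 7.21 ± 0.11 and 6.14 ± 0.05 (SD, n = 2 each), which is a log2 change of -1.07 ± 0.11 (SE) that passed the test (limma, adjusted p = 0.0305). Without any 1 array the log2 change of Wnt3 lay between -1.15 and -0.997 and its call was lost, as were most calls over all clusters. Thus 1 of the 2 named Wnt genes passed as lower and none as higher, beside 55.3% of all named genes and 0.858% of all clusters called lower, so the count shows nothing particular to Wnt genes. Among the 13 genes for the Zeb2 family and its corepressors, Zeb2 itself was the only 1 with a single symbol. Clusters that the authors listed under several symbols, such as Hdac1 together with Hdac1-ps, were not named and are not described here.

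Genes of the lineage in which Olig1-Cre acts read lower on the same arrays. Of 8 markers of oligodendrocytes 7 were named and all 7 fell, with a median log2 change of -5.55, and their summed linear values lay between 36320 and 38630 in control and between 1458 and 2134 in Sip1 cKO. Of 12 transcription factors of the lineage 8 were named and all 8 read lower, with -1.39 as their median log2 change. Of these 8, 6 were called lower, Olig2 narrowly (limma, adjusted p = 0.0497), and Olig1 and Sox8 missed the threshold. Over all features 55.3% of the named genes and 0.858% of the clusters were called lower, with medians of -1.29 and -0.01, and a gene could be named only if it differed in this contrast. Without control replicate 1 or control replicate 2, 0 markers and 0 factors passed in limma, although all 7 and all 8 had an unadjusted p under 0.05, and without either Sip1 cKO array 7 markers and 1 factor did. The summed values of these 8 lay between 6531 and 8440 in control and between 2905 and 2933 in Sip1 cKO. The 32 markers of oligodendrocyte progenitors, astrocytes, microglia, neurons, vessels, ependyma, muscle and blood were not named, so that a shift in those cells was not analysed here. The part of these markers' decrease in the values of Zeb2, Smad7, Nkd1 and Wnt3 was not tested.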

How the data were processed

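Total RNA of whole spinal cord was read on 4 Affymetrix arrays (MoGene-1_0-st-v1, per the file headers), grouped by sample title into 2 control and 2 Sip1 cKO. The authors deposited 1 log2 value per cluster and array, after RMA per the submitters' processing notes. The RMA version and genome build are not given in the sources used here, and nothing was normalized again. The authors' deposited table holds, per the file headers, mean intensity per group and its fold (ratio). Its clusters were past a fold of 1.45 and within a percentile range of 10 to 100, so it need not list every cluster past that fold. The authors' deposited table calls a cluster up where control was higher, while signs here are Sip1 cKO minus control.

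Clusters were named only through single symbols of that table (375 of 420 clusters, 369 genes), updated through RefSeq names of GRCm38.p6. The test was limma 3.58.1 in R 4.3.3 (two-sided, lmFit and eBayes) with only the group as a term, fitted and Benjamini-Hochberg adjusted over the 35557 clusters together. The fit was run on data simulated from its own model, which checks the code and not the assumptions of the model. The number of arrays limits the precision. An exact permutation test of 2 against 2 arrays has 0.333 as its smallest two-sided p, so none is given.

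The members and gene lists were chosen with earlier results of these data known. The text names the 3 genes, every list or marker gene named in the table that a result turns on, and for each gene the 3 nearest named genes by the distance over the 4 centred values.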

Additional observations from a re-analysis of the deposited data

How the results depend on the processing

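Zeb2 kept its direction and its call in the 9 settings that kept all arrays, with a log2 change between -1.75 and -1.71 and an adjusted p between 0.00104 and 0.0456, and lost its call without any 1 array (log2 change -1.84 to -1.66). Smad7, at -1.25, passed with a filter on dim clusters, with an eBayes trend and without the lowest identifiers, each of which leaves its log2 change of -1.25 as it is and alters the spread or the number of clusters tested. Without any 1 array it ranged from -1.41 to -1.09. Nkd1 did not pass in any setting run (adjusted p between 0.0741 and 0.508) and ranged from -1.13 to -0.58 without any 1 array. When an arm was left with 1 array, that array was assumed to vary like the other group. Median centring of the arrays moved each change by less than its standard error.

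The background of lower clusters was 650 with the dim filter, 487 with an eBayes trend and 600 without the lowest identifiers, against 305, and that of higher clusters was 244 with the dim filter, 218 without the lowest identifiers and 24 when rows of identical values were tested as 1, against 78. Without any 1 array there were 0 to 59 lower and 0 to 2 higher clusters. At an unadjusted p under 0.05, limma without control replicate 1 still gave 2949 lower and 2611 higher clusters, and without control replicate 2 gave 3527 and 3069. Whether the replicate numbers pair the arrays is not stated in the labels. The deviations of arrays with the same number correlated with r = 0.0764 across clusters. With 2 arrays per group this value cannot decide whether they are paired. With the number as a replicate block 110 clusters were lower and 1 higher, the adjusted p was 0.0456 for Zeb2, 0.138 for Smad7 and 0.234 for Nkd1, and the log2 changes stayed at -1.75, -1.25 and -0.85. With that block Wnt3 missed the threshold (adjusted p = 0.0798), 5 oligodendrocyte markers and 3 lineage factors passed, and 4 factors passed after median centring. The settings for Wnt3 and the marker counts were chosen after seeing the data.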
